A study of Mus musculus with 79 samples.

Results

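The 10 genes described here take part in, or regulate, the passage of fatty acids from circulating lipoproteins into cells: *Lpl*, *Gpihbp1*, *Angptl4*, *Angptl8*, *Vldlr*, *Cd36*, *Slc27a1*, *Slc27a4*, *Fabp4* and *Fabp5*. They were chosen by gene symbol for their role, and each matched 1 of the 74693 features measured. All 10 had a mean of at least 0.4 TPM, a read abundance scaled for gene length and depth, over the 79 libraries and were therefore among the 14873 genes tested. RNA came from caudal vertebrae (CV), whose marrow holds stable constitutive bone marrow fat, from lumbar vertebrae (LV), a bone control with little marrow fat, and from inguinal white adipose tissue (iWAT), a fat depot that responds readily to metabolic cues. Mice were 4 to 5 months old by the series description, of a mixed SJL and C57BL6 background, and either BMAd-*Pnpla2*+/+ (WT) or BMAd-*Pnpla2*-/- (KO), in which the lipase ATGL is deleted in bone marrow adipocytes. The study's publication gives an older upper age, also for the insulin mice. The driver of that deletion is not given in the sources used here, and the authors left out the rare mice that failed to respond to ICV leptin because a pump or operation had failed. For 9 days each mouse received an intracerebroventricular (ICV) infusion of PBS or of leptin at 100 ng per h, with pair feeding, so that every group had brain surgery and a pump. CV of female WT (5 PBS, 5 leptin), female KO (4 and 4), male WT (5 and 8) and male KO mice (5 and 4) was compared, with LV of the same 18 females and iWAT of the same 10 female WT mice. Another 11 male WT mice carried a subcutaneous insulin pellet as well, 5 with PBS and 6 with leptin.

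Fatty acids reach fat cells by several steps. Lipoprotein lipase, anchored in capillaries by GPIHBP1, splits the triglycerides of chylomicrons and very-low-density lipoprotein, and secreted angiopoietin-like proteins adjust its activity with feeding and fasting. The released fatty acids cross the membrane with the help of CD36 and of the fatty acid transport proteins, which also couple them to coenzyme A, and small binding proteins of the FABP family carry them inside the cell. In white fat this route is known to follow insulin and feeding, whereas constitutive marrow fat is known for resisting cues that empty other depots.

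*Slc27a1* (chr8:71568728-71587307) and *Angptl8* (chr9:21835510-21837347) were the members that changed with leptin in CV of both sexes, in opposite directions. The 250 bases before their RefSeq start sites (GRCm38.p6, plus strand) are shown because both genes moved in the same libraries. Promoter windows were found for 5 of the 10 members. *Slc27a1* has 3 annotated starts, of which the most downstream is shown (chr8:71570344-71570593), and *Angptl8* has 1 (chr9:21835260-21835509). Capitals mark matches, on either strand, to any of 5 motifs. These were the E-box CACGTG and the box known as CCAAT. The GC box was searched as GGGCGG. The core promoter box was searched as TATAAA, and a nuclear receptor motif was searched as AGGTCA. No matches overlap here.
Slc27a1: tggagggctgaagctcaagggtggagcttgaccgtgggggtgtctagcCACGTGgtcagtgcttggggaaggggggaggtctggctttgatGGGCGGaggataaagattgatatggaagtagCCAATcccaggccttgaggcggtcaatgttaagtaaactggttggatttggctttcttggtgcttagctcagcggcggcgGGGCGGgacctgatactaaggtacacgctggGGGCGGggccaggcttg
Angptl8: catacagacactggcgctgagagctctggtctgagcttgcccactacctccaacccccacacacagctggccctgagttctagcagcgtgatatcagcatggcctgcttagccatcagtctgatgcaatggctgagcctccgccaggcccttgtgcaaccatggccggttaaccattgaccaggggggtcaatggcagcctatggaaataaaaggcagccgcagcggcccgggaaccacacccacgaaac
The *Slc27a1* window held CACGTG 202 bases before the start, CCAAT at 128, and GGGCGG at 159, 48 and 17 bases. The *Angptl8* window held none of the 5 motifs. Among 32851 windows of this length, 6.02% held CACGTG, 33.8% CCAAT, 32.7% GGGCGG, 12.4% TATAAA and 14% AGGTCA. These matches are descriptions of the letters, not binding sites.

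The other members lie at chr8:68880555-68906932 (*Lpl*), chr15:75596630-75598213 (*Gpihbp1*), chr17:33774900-33781575 (*Angptl4*), chr19:27216480-27254231 (*Vldlr*), chr5:17781690-17888959 (*Cd36*), chr2:29802634-29817522 (*Slc27a4*), chr3:10204342-10208616 (*Fabp4*) and chr3:10012585-10016610 (*Fabp5*). *Angptl8* lies inside *Dock6* (chr9:21800180-21852718) on the opposite strand, and the strand setting of the counting is not given in the sources used here, so reads of the pair cannot be told apart. *Fabp5* has a processed pseudogene copy, and how reads shared with it were counted is not given in the sources used here.

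CV libraries held 16100377 to 19364106 counts, iWAT libraries 17638318 to 19100698 and LV libraries 28717516 to 29757254. *Pnpla2*, the targeted gene, was lower in CV of KO mice (131 to 266 TPM in 17 libraries without insulin) than of WT mice (191 to 405 TPM in 23 libraries), by 0.51 ± 0.10 (SE) on the log2 scale (quasi-likelihood test of edgeR, Benjamini-Hochberg adjusted p = 0.00577), with ranges that overlapped. The summed level of 6 adipocyte markers (*Adipoq*, *Plin1*, *Cidec*, *Cfd*, *Retn*, *Lipe*) was 25823 to 68946 TPM in iWAT, 1568 to 5237 TPM in CV and 18.7 to 125 TPM in LV. CV also held 13258 to 58658 TPM of 6 skeletal muscle markers, against 717 to 2573 TPM in LV, and LV held 74967 to 155021 TPM of 4 neutrophil markers. No library duplicated another of its group. Replicates were separate mice, so the p-values measure the spread between mice.

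Most members followed the order of fat content on the TPM scale in PBS-treated female WT mice, with iWAT above CV and CV above LV. The order depended on the scale. In the test described below, on counts scaled by TMM, *Fabp5* (log2 -0.77) and *Slc27a4* (-1.26) were lower in CV than in LV. *Angptl4* and *Angptl8* did not pass between CV and LV in that test, and *Vldlr* was higher in CV than in iWAT (log2 1.32). *Fabp4*, the adipocyte fatty acid binding protein, was the most abundant member on the TPM scale in each tissue. Its mean ± SD (n = 5) was 41667 ± 6246 TPM in iWAT, 6056 ± 645 TPM in CV and 309 ± 65.5 TPM in LV. By mean TPM it ranked 1 among all tested genes in iWAT, 9 in CV and 291 in LV. *Angptl8* was the least abundant member in CV and LV, at a mean of 4.43 and 0.71 TPM, but stood at 156 TPM in iWAT, where its 5 libraries ran from 55.2 to 368 TPM. In these bulk samples, fewer cells of a type and less RNA per cell cannot be told apart.

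**Figure D1:**
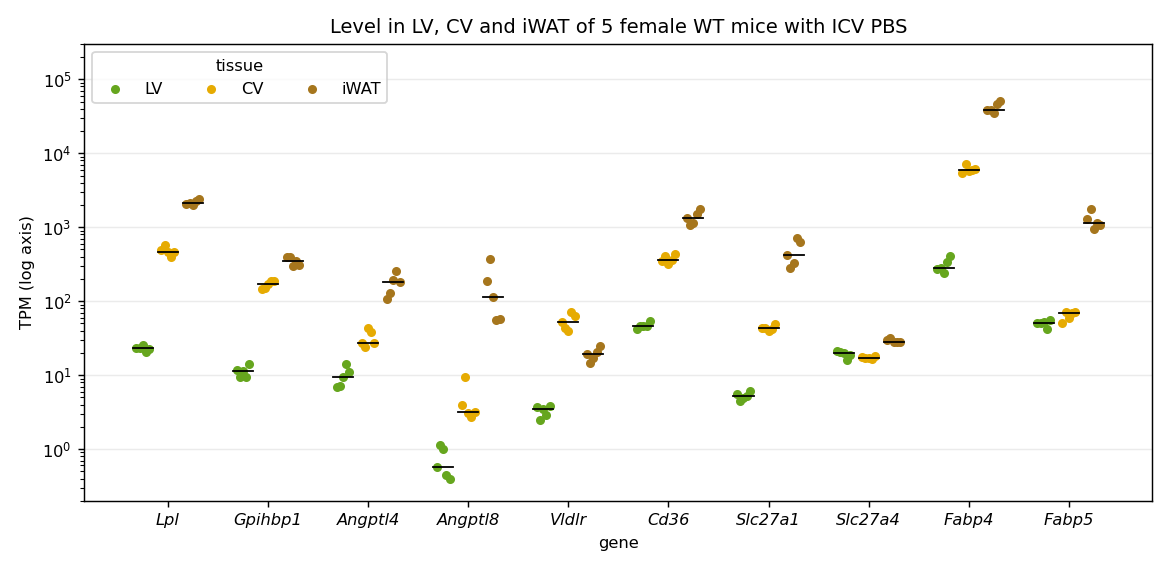
Level of the 10 members in LV, CV and iWAT of 5 female WT mice with PBS, in TPM on a log axis, with 1 point per mouse and a line at the median. iWAT was highest for 9 members, and *Vldlr* was highest in CV.

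Between CV and LV, 8 members were called, 6 higher and 2 lower in CV, where 66.3% of all genes tested were called (34.7% higher and 31.6% lower). Called here and throughout means an adjusted p below 0.05 together with a change of 0.5 or more on the log2 scale in either direction, by the quasi-likelihood test of edgeR with p-values adjusted over all tested genes after Benjamini and Hochberg. Interactions needed the adjusted p alone. *Lpl* was at 394 to 569.5 TPM in CV and 20.5 to 25.8 TPM in LV, 9.63-fold higher (log2 3.27 ± 0.11 SE, adjusted p = 2.46e-13). *Vldlr*, a receptor for triglyceride-rich lipoproteins, was at 40.0 to 71.9 TPM in CV and 2.51 to 3.85 TPM in LV, 7.78-fold higher (log2 2.96 ± 0.17, adjusted p = 8.32e-11). *Fabp4* (log2 3.10), *Gpihbp1* (2.75), *Cd36* (1.96) and *Slc27a1* (1.96) were also higher in CV. *Slc27a4* was lower by 1.26 on the log2 scale, although its TPM ranges overlapped, at 16.5 to 18.2 in CV and 16.1 to 21.3 in LV, and the call was lost with limma on log2(TPM + 1) (-0.14, adjusted p = 0.0711). *Fabp5* was lower by 0.77 after TMM scaling but higher by 0.35 with limma on log2(TPM + 1), so its direction rests on the scaling. On the TPM scale the median gene lay 1.09 further above LV (log2) than after TMM scaling, and the shift was 0.91 for iWAT against LV and 0.18 for CV against iWAT. TPM ranges did not overlap for 8 members, against 83% of all genes tested. The median log2 fold change was 1.96 over the members and 0.02 over all genes.

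*Angptl4* and *Angptl8* were not called between CV and LV (log2 0.57 ± 0.27, adjusted p = 0.0663, and 1.51 ± 0.77, adjusted p = 0.0819). With the mouse as a block both were called, at 0.61 (adjusted p = 0.00303) and 1.48 (adjusted p = 0.000553). Between iWAT and LV, 9 members were called, each higher in iWAT, where 67.1% of genes were called (34.2% higher and 32.9% lower) and 77.1% did not overlap. *Lpl* was 49.6-fold higher there (log2 5.63 ± 0.12, adjusted p = 4.05e-15) and *Slc27a1* 48.4-fold higher (log2 5.60 ± 0.25, adjusted p = 3.94e-12). The exception, *Slc27a4*, was lower by 0.32 after TMM scaling and higher by 0.58 with limma on log2(TPM + 1).

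Between CV and iWAT, all 10 members were called and none overlapped, where 50.9% of genes were called (25.6% higher and 25.2% lower in CV) and 56.7% did not overlap. *Vldlr* alone was higher in CV, at 40.0 to 71.9 TPM against 14.8 to 24.8 TPM in iWAT, 2.5-fold (log2 1.32 ± 0.16, adjusted p = 1.58e-06). In these mice the muscle marker sum was 16458 to 36926 TPM in CV and 28.1 to 2513 TPM in iWAT. In LV the muscle marker sum was 753 to 2573 TPM. The part of muscle in the differences between tissues was not tested. The other 9 were lower in CV, from *Slc27a4* (log2 -0.93) to *Angptl8* (log2 -5.32). The FABP pair differed in how far apart the depots were. *Fabp5*, the relative of *Fabp4* found in skin and macrophages as well as fat, was at 942 to 1761 TPM in iWAT and 50.8 to 72.4 TPM in CV, close to the 42.0 to 55.2 TPM of LV (CV against iWAT, log2 -4.46 ± 0.17). *Fabp4* was at 34964 to 50245 TPM in iWAT and 5334 to 7058 TPM in CV (log2 -2.98 ± 0.18). *Slc27a1*, the fatty acid transport protein FATP1, was at 285 to 704 TPM in iWAT and 39.0 to 49.4 TPM in CV (log2 -3.64 ± 0.23), whereas its relative *Slc27a4* (FATP4) was at 27.9 to 32.2 TPM and 16.5 to 18.2 TPM.

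In CV of female WT mice, leptin raised *Slc27a1* and lowered *Angptl8* and *Cd36*, so that 3 of the 10 members were called against 5.04% of all genes tested (2.78% higher and 2.25% lower). *Slc27a1* was at 44.0, 43.0, 39.0, 41.4 and 49.4 TPM in the 5 PBS libraries and at 61.7, 69.7, 130.2, 97.3 and 84.1 TPM in the 5 leptin libraries. Every leptin library lay above every PBS library, a 1.99-fold rise (log2 0.99 ± 0.15 SE, adjusted p = 0.00508). *Cd36*, the fatty acid translocase, was at 347, 408, 322, 362 and 429 TPM with PBS and at 198, 196, 302, 276 and 209 TPM with leptin. The groups did not overlap, and the level with leptin was 0.623 of that with PBS (log2 -0.68 ± 0.11, adjusted p = 0.00804).

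*Angptl8*, a secreted regulator of lipoprotein lipase that rises with feeding and insulin, was at 3.96, 9.30, 3.04, 2.70 and 3.14 TPM with PBS and at 1.15, 1.93, 0.77, 0.72 and 0.98 TPM with leptin, from 18 to 66 and 5 to 15 counts. Here too the groups did not overlap, and it fell by 2.01 ± 0.46 on the log2 scale (0.249-fold, adjusted p = 0.0238). It was called in 15 of 19 alternatives, with an adjusted p of 0.00103 to 0.0629, lost with the muscle markers as a covariate and without PBS replicate 1, leptin replicate 4 or leptin replicate 5. *Dock6*, which overlaps it, changed by -0.32 (adjusted p = 0.0402).

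*Lpl* was at 496, 569.5, 467, 394 and 463 TPM with PBS and 207, 388, 382, 328 and 299 TPM with leptin. These groups did not overlap either, but the difference was not called (log2 -0.59 ± 0.19, adjusted p = 0.0730). On the same libraries it was called by DESeq2 (log2 -0.58, adjusted p = 0.0179) and with the replicate number as a block (log2 -0.62, adjusted p = 0.0474). Without leptin replicate 2 it was called too (log2 -0.73, adjusted p = 0.0236), as was *Fabp4* (log2 -0.53, adjusted p = 0.0350), so that 5 members were called. Without that library 941 of all genes were called, against 749 with every library kept. In all, 4 members did not overlap, against 6.56% of genes. *Gpihbp1*, *Fabp5*, *Slc27a4*, *Vldlr* and *Angptl4* lay between -0.03 and 0.27 on the log2 scale and did not pass. With all libraries kept, *Fabp4* did not pass either (log2 -0.38 ± 0.17, adjusted p = 0.180). The adipocyte marker sum was 2649 to 5237 TPM with PBS and 1604 to 3988 TPM with leptin, with *Plin1* (log2 -1.37), *Lipe* (-0.98) and *Adipoq* (-0.89) called lower and the other 3 not called. The sum of 4 macrophage markers was 556 to 732 TPM with PBS and 770 to 980 TPM with leptin, with *Cd68* called higher. The sum of 4 osteoblast markers was 2250 to 6267 TPM and 5230 to 15916 TPM, with *Col1a1* and *Alpl* called higher. The sum of 4 erythroid markers was 12.7 to 44.0 TPM and 33.4 to 169.2 TPM, with *Alas2* called higher and *Slc4a1* lower. The muscle marker sum was 16458 to 36926 TPM and 13258 to 32673 TPM. With it as a covariate *Slc27a1* and *Cd36* kept their calls and *Angptl8* did not. The part of the other markers in the results was not tested.

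**Figure D2:**
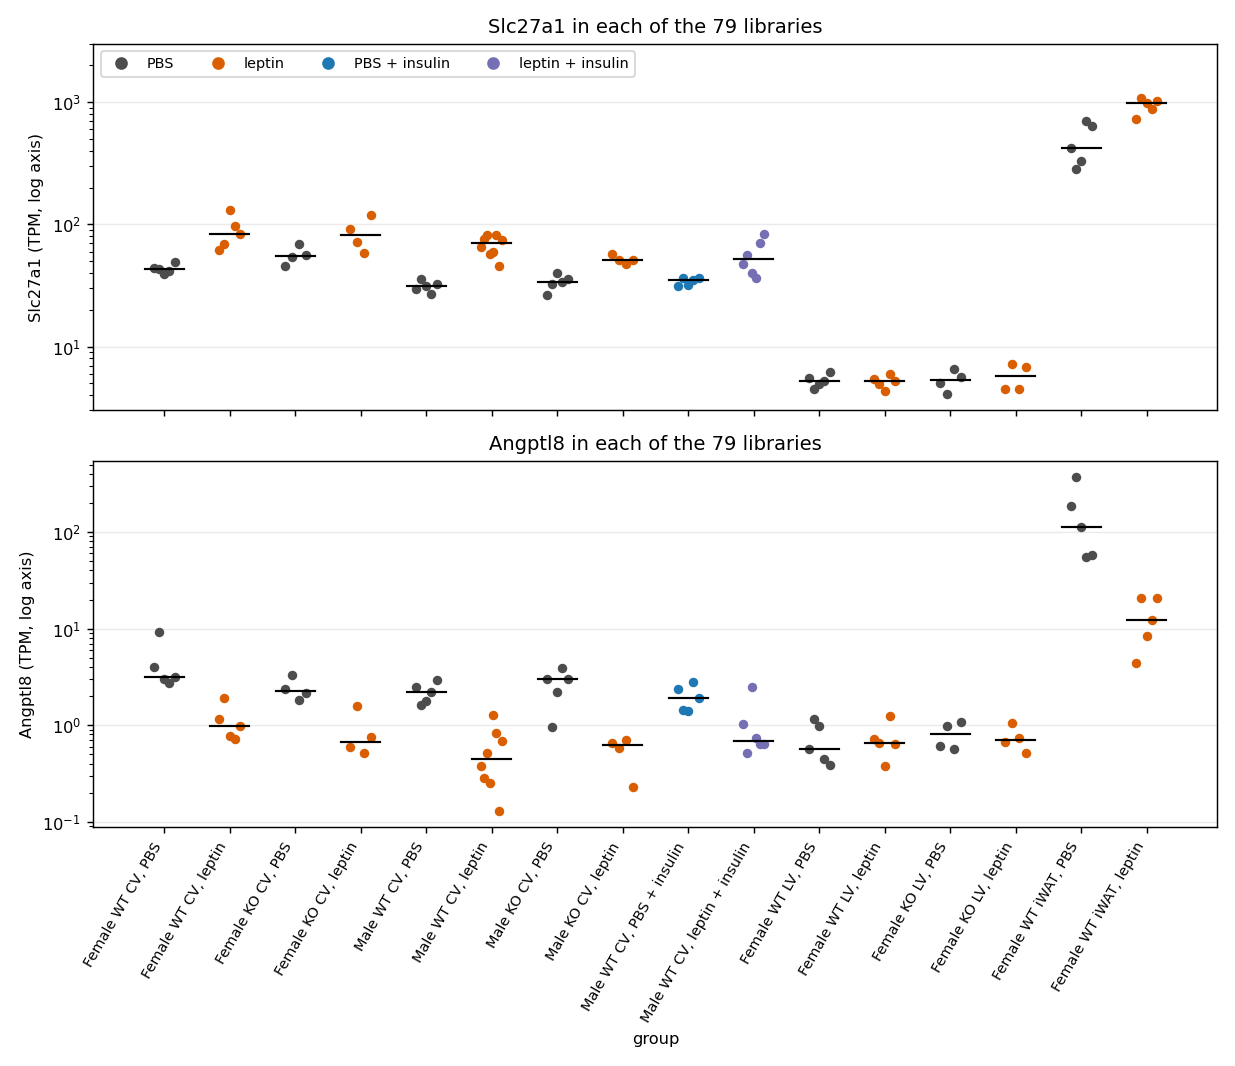
*Slc27a1* (top) and *Angptl8* (bottom) in each of the 79 libraries, in TPM on log axes, by tissue, sex, genotype and treatment, with 1 point per mouse and a line at the median. In CV of WT mice without insulin and in iWAT the PBS and leptin points did not overlap for either gene, and in LV they did for both.

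In CV of male WT mice, leptin changed the same *Slc27a1* and *Angptl8*, 2 of 10 members, against 1.75% of genes (0.834% higher and 0.914% lower). *Slc27a1* was at 29.8, 35.9, 31.5, 26.9 and 32.8 TPM with PBS, and its 8 leptin libraries had a lowest, median and highest value of 45.8, 69.9 and 82.7 TPM. It was higher in 8 of 8 leptin mice than in any PBS mouse (2.10-fold, log2 1.07 ± 0.13, adjusted p = 0.000721). *Angptl8* was at 2.46, 1.61, 1.78, 2.19 and 2.92 TPM with PBS (13 to 24 counts) and at 0.13, 0.45 and 1.26 TPM, lowest, median and highest, with leptin (1 to 10 counts). All 8 leptin mice lay below all PBS mice (0.243-fold, log2 -2.04 ± 0.37, adjusted p = 0.00864). These were the members that did not overlap, against 2.19% of genes. The adipocyte marker sum was 2367 to 4689 TPM with PBS and 2023 to 3280 TPM with leptin, with *Plin1*, *Lipe* and *Adipoq* called lower. The macrophage sum was 477 to 681.4 TPM and 636 to 877 TPM, with none of its genes called, and the erythroid sum was 7.51 to 20.6 TPM and 26.3 to 66.6 TPM, with *Alas2* called higher. Their part was not tested. The muscle marker sum was 37484 to 44692 TPM with PBS and 19315 to 37996 TPM with leptin, and with it as a covariate *Slc27a1* kept its call (log2 0.95, adjusted p = 0.0352) while *Angptl8* did not (log2 -2.12, adjusted p = 0.108).

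*Cd36* in male WT CV was at 296, 306, 347, 282 and 347 TPM with PBS and at 211, 269.9 and 405 TPM, lowest, median and highest, with leptin. The ranges overlapped and the difference was not called (log2 -0.20 ± 0.14, adjusted p = 0.468). *Gpihbp1*, the endothelial anchor of lipoprotein lipase, was at 117, 124, 144, 139 and 186.9 TPM with PBS and at 158, 188.2 and 329 TPM with leptin (log2 0.59 ± 0.20, adjusted p = 0.127). It was called by DESeq2 (log2 0.59, adjusted p = 0.0455) and in a fit with the number series as a covariate (log2 0.59, adjusted p = 0.0339). The endothelial marker sum was 208 to 246 TPM and 246 to 335.7 TPM in the same groups, and its part was not tested. *Angptl4*, an inhibitor of lipoprotein lipase that rises on fasting, reached 234 TPM in leptin replicate 8, where the other leptin mice lay at 32.5 to 88.5 TPM and the PBS mice at 29.4 to 67.2 TPM (log2 0.56 ± 0.43, adjusted p = 0.521).

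In CV of KO mice, no member was called. In females 0.0269% of genes were called. At an unadjusted p below 0.05 there were 4 of 10 members, against 11.6% of genes, and DESeq2 called 1 member and 219 genes. In males 0.188% of genes were called. Unadjusted, 4 of 10 members passed, against 9.66% of genes, and DESeq2 called 2 members and 214 genes. Female *Slc27a1* was at 45.8, 54.6, 69.5 and 56.3 TPM with PBS and at 92.0, 71.4, 58.2 and 120.5 TPM with leptin (log2 0.70 ± 0.24, adjusted p = 0.349). These ranges overlapped. Female *Angptl8* was at 2.37, 3.33, 1.83 and 2.16 TPM with PBS and at 0.60, 1.56, 0.52 and 0.75 TPM with leptin (log2 -1.44 ± 0.41, adjusted p = 0.305). It and *Lpl* (log2 -0.59 ± 0.17, adjusted p = 0.309) were the 2 members that did not overlap, against 5.02% of genes.

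Male KO *Slc27a1* was at 26.3, 32.6, 40.2, 33.6 and 35.6 TPM with PBS and at 57.1, 51.04, 47.8 and 51.4 TPM with leptin (log2 0.64 ± 0.16, adjusted p = 0.134; DESeq2, adjusted p = 0.0143). Male KO *Angptl8* was at 2.99, 0.95, 2.18, 3.91 and 2.99 TPM with PBS and at 0.65, 0.58, 0.70 and 0.23 TPM with leptin (log2 -2.23 ± 0.48, adjusted p = 0.0937; DESeq2, adjusted p = 0.00511). Neither gene overlapped, nor did *Cd36* (294 to 335 TPM against 217 to 276 TPM), 3 members against 2.72% of genes. The KO groups held 4 or 5 mice, against 5 to 8 in WT groups. When the difference between genotypes in the leptin response was itself tested, no member and 0% of genes passed (895 genes and 2 of 10 members at an unadjusted p below 0.05, and none by DESeq2). For *Slc27a1* that difference was -0.37 ± 0.18 (95% interval -0.74 to just under 0, adjusted p = 0.817), and for *Angptl8* 0.18 ± 0.46 (95% interval -0.76 to 1.13, adjusted p = 0.972).

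In 1 fit of the 40 CV libraries without insulin, with sex and genotype as terms, leptin raised *Slc27a1* 1.85-fold (log2 0.89 ± 0.10, adjusted p = 4.48e-09) and lowered *Angptl8* to 0.25 of its level (log2 -2.0 ± 0.22, adjusted p = 1.28e-08). These 2 of 10 members were called against 5.49% of genes (3.37% higher and 2.12% lower), and in 49 of 49 alternatives. Another 3 members had an adjusted p below 0.05 with a smaller change: *Gpihbp1* was higher by 0.40 ± 0.10 (adjusted p = 0.00309), *Cd36* changed by -0.38 ± 0.09 (adjusted p = 0.00149) and *Lpl* by -0.36 ± 0.10 (adjusted p = 0.00655). At any fold, 27.9% of genes passed. *Fabp4* (log2 -0.25, adjusted p = 0.0641), *Angptl4* (0.41, adjusted p = 0.0991), *Fabp5* (0.12), *Vldlr* (0.11) and *Slc27a4* (-0.06) did not. In the same fit 5 of the 6 adipocyte markers were called lower, from *Cidec* (log2 -0.53) to *Plin1* (-1.46), and their part in these results was not tested.

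**Figure D3:**
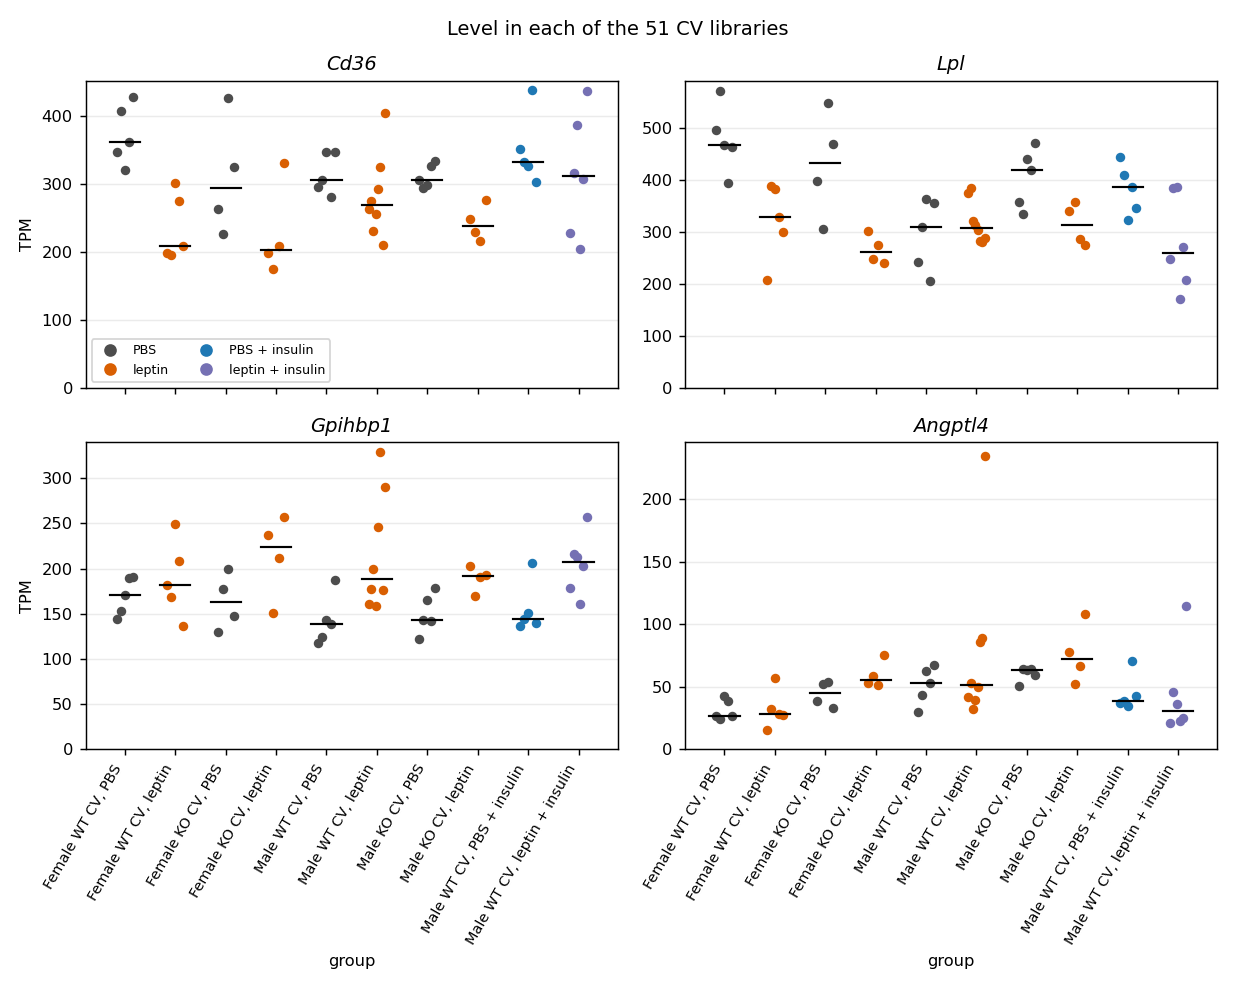
*Cd36*, *Lpl*, *Gpihbp1* and *Angptl4* in each of the 51 CV libraries, in TPM on linear axes that start at 0, by sex, genotype and treatment, with 1 point per mouse and a line at the median. The leptin points lay below the PBS points without overlap for *Cd36* in female WT and male KO mice and for *Lpl* in female WT and female KO mice, and 1 male WT leptin library stood apart for *Angptl4*, at 234 TPM.

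The mouse numbers of mice without insulin fell into a 100, a 600 and a 5000 series. Within each series that held both treatments, *Slc27a1* in CV was higher with leptin and *Angptl8* lower, without overlap, in both sexes and genotypes. Some comparisons had 1 mouse a side, as in female KO mice of the 5000 series, where lack of overlap is fixed by the group sizes. The share of all genes without overlap within series was not counted, so these values describe direction only. In male WT mice of the 100 series, for example, *Slc27a1* was at 29.8 to 35.9 TPM (3 PBS) and 57.2 to 82.7 TPM (5 leptin). In the 600 series it was at 26.9 to 32.8 TPM (2 PBS) and 45.8 to 82.5 TPM (3 leptin). *Angptl4* in male WT CV overlapped in the 100 series, at 29.4 to 62.8 TPM with PBS and 32.5 to 53.1 TPM with leptin (means 45.3 and 43.3 TPM). In the 600 series, with 2 PBS and 3 leptin mice, it was at 52.7 to 67.2 TPM and 85.7 to 234 TPM.

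In iWAT of female WT mice, leptin changed 9 of 10 members, 8 downwards and *Slc27a1* upwards, against 15.1% of genes (7.87% lower and 7.24% higher). The members' median log2 fold change was -0.88, against 0.07 over all genes. *Angptl8* was at 186.1, 368, 114, 55.2 and 57.8 TPM with PBS and at 4.37, 20.8, 8.38, 12.3 and 20.5 TPM with leptin. The groups did not overlap, and it fell by 3.47 ± 0.63 on the log2 scale, to 0.0902 of the PBS level (adjusted p = 0.00317). *Lpl* was at 2064, 2153, 2013, 2226 and 2434 TPM with PBS and at 729.97, 1240.4, 1448, 1254 and 1470.2 TPM with leptin. All 5 leptin mice lay below all PBS mice (0.605-fold, log2 -0.73 ± 0.20, adjusted p = 0.0236).

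*Gpihbp1* was at 391, 397, 295, 349 and 308 TPM with PBS and at 179.7, 325, 186.7, 102 and 153 TPM with leptin (log2 -0.79 ± 0.24, adjusted p = 0.0341). Leptin replicate 2 lay inside the PBS range, and the call held in 12 of 18 alternatives (adjusted p 0.00194 to 0.0781, lost without PBS replicate 1, 2 or 4 or leptin replicate 1, 4 or 5). The endothelial marker sum was 261 to 372.1 TPM with PBS and 239 to 349 TPM with leptin, with none of its 6 genes called. *Vldlr* was at 19.5, 14.8, 16.8, 20.4 and 24.8 TPM with PBS and at 8.58, 9.06, 12.8, 8.01 and 7.91 TPM with leptin, without overlap (0.513-fold, log2 -0.96 ± 0.17, adjusted p = 0.00262). *Angptl4* was the member not called, at 108 to 256 TPM with PBS and 79.03 to 151 TPM with leptin (log2 -0.46 ± 0.24, adjusted p = 0.173).

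The carriers went different ways. *Cd36* was at 1316, 1068, 1157, 1528 and 1766 TPM with PBS and at 306, 784, 558, 334 and 506 TPM with leptin (0.389-fold, log2 -1.36 ± 0.26, adjusted p = 0.0041). *Slc27a4* was at 27.9 to 32.2 TPM with PBS and 16.5 to 19.9 TPM with leptin (0.668-fold, log2 -0.58 ± 0.08, adjusted p = 0.00068). Neither gene overlapped between treatments. *Slc27a1* rose instead, from 423, 285, 331.5, 704 and 636 TPM to 735, 1093, 982, 887 and 1020.3 TPM, also without overlap (2.11-fold, log2 1.07 ± 0.26, adjusted p = 0.0126). With PBS its 3 mice of the 100 series lay at 285 to 423 TPM and its 2 of the 600 series at 636 to 704 TPM, and with leptin it was higher than with PBS within each series.

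Both binding proteins fell. *Fabp5* was at 1298, 1761, 942, 1122 and 1077 TPM with PBS and at 149.5, 393, 181, 167.4 and 492.8 TPM with leptin (0.238-fold, log2 -2.07 ± 0.36, adjusted p = 0.00267). *Fabp4* was at 38960, 38219, 34964, 45947 and 50245 TPM with PBS and at 11072, 27127, 12452, 15226 and 24392 TPM with leptin (0.463-fold, log2 -1.11 ± 0.27, adjusted p = 0.0128). In neither gene did the groups overlap. In all, 8 members did not overlap, against 18.7% of genes. The adipocyte markers went both ways in the same libraries: *Plin1* (log2 -0.95) and *Lipe* (-0.74) fell, *Cfd* rose (1.42), and the other 3 were not called. Their sum was 25823 to 32982 TPM with PBS and 43465 to 68946 TPM with leptin. The sum of 4 erythroid markers was 8.26 to 12.9 TPM and 1.34 to 6.27 TPM. The part of these markers in the results was not tested.

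**Figure D4:**
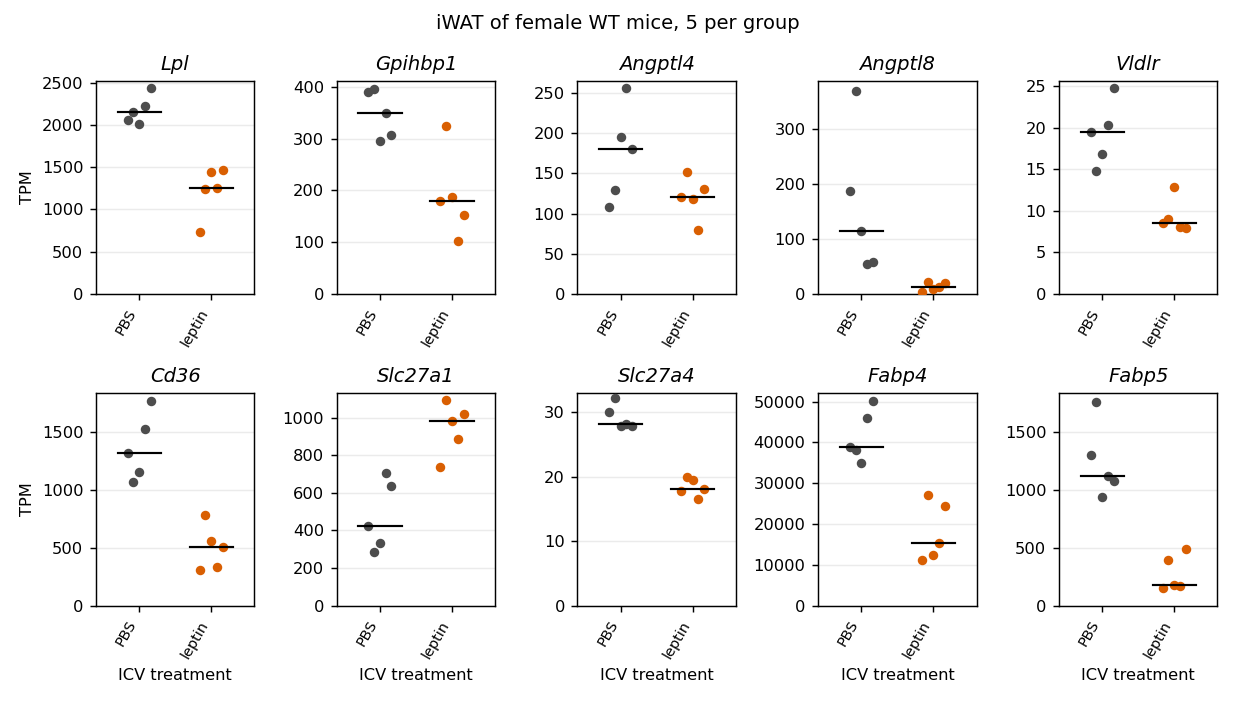
iWAT level of the 10 members in female WT mice with PBS and leptin, 5 per group, in TPM on linear axes that start at 0, with 1 point per mouse and a line at the median. All leptin points lay below all PBS points for 7 members and above them for *Slc27a1*, and the groups overlapped for *Gpihbp1* and *Angptl4*.

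Whether the leptin response differed between iWAT and CV of the same female WT mice was tested as an interaction. It passed for 4 of 10 members, each lower in iWAT, against 15.5% of genes (9.12% lower and 6.33% higher). *Fabp5* differed by 2.24 on the log2 scale in size (iWAT minus CV -2.24 ± 0.39, adjusted p = 0.00105): in CV it was at 50.8 to 72.4 TPM with PBS and 65.7 to 84.2 TPM with leptin. *Vldlr* (-1.27 ± 0.24, adjusted p = 0.00191) was at 40.0 to 71.9 TPM in CV with PBS and 45.2 to 85.8 TPM with leptin. *Slc27a4* (-0.63 ± 0.09, adjusted p = 0.000308) was at 16.5 to 18.2 and 14.9 to 19.2 TPM in CV. *Gpihbp1* (-0.90 ± 0.29, adjusted p = 0.0419) was at 144 to 190.1 and 136 to 249.6 TPM there, and its call held in 8 of 17 alternatives (adjusted p 0.00199 to 0.119, lost without any 1 of 9 of the 10 mice, all but leptin replicate 2).

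For *Slc27a1* the 2 responses differed by 0.04 ± 0.32 (95% interval -0.62 to 0.71, adjusted p = 0.948), and for *Angptl8* by -1.50 ± 0.99 (95% interval -3.57 to 0.58, adjusted p = 0.332). *Cd36* (-0.71 ± 0.30, adjusted p = 0.116), *Fabp4* (-0.76 ± 0.33, adjusted p = 0.127), *Angptl4* (-0.46 ± 0.40) and *Lpl* (-0.17 ± 0.29) did not pass. With the mouse as a block, *Fabp4* (-0.81, adjusted p = 0.0468) and *Angptl8* (-1.40, adjusted p = 0.0490) passed as well.

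**Figure D5:**
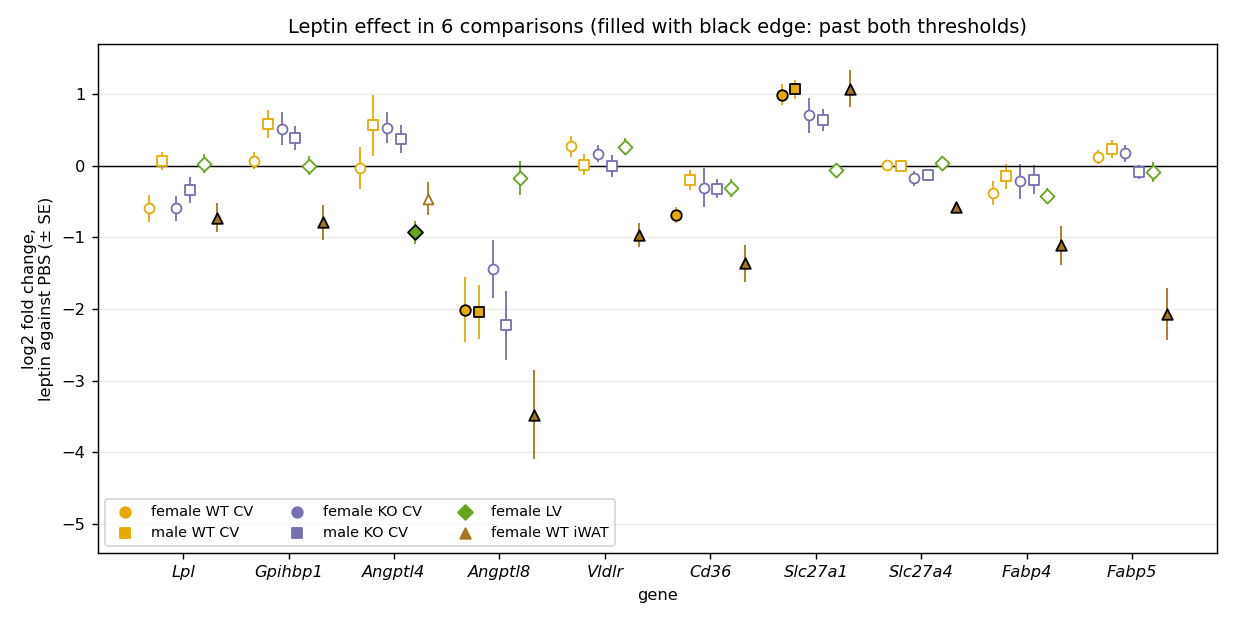
Log2 fold change with leptin of each member (points) and its standard error (bars) in CV of each sex and genotype, in LV of both genotypes and in female WT iWAT, with filled, black-edged points for those called. *Slc27a1* lay above 0 and *Angptl8* below 0 in CV of all 4 kinds and in iWAT, and only *Angptl4* was called in LV.

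In LV of the 18 females, with genotype as a term, leptin lowered *Angptl4*, 1 of 10 members against 1.11% of genes. In WT mice it was at 7.00, 7.15, 9.54, 13.96 and 11.2 TPM with PBS and at 5.54, 8.41, 5.32, 5.69 and 6.04 TPM with leptin. In KO mice it was at 12.7, 9.81, 15.6 and 7.57 TPM and at 4.24, 7.56, 5.21 and 5.48 TPM. The WT groups overlapped through leptin replicate 2, and the fall was 0.93 ± 0.16 on the log2 scale (0.526-fold, adjusted p = 0.00602), called in 26 of 26 alternatives. *Fabp4* changed by -0.42 ± 0.12 (adjusted p = 0.0429), below the fold required, where 5.41% of genes passed at any fold. Neither *Slc27a1*, at 4.08 to 7.21 TPM (log2 -0.05 ± 0.08, adjusted p = 0.784), nor *Angptl8*, at 0.38 to 1.24 TPM and 8 to 23 counts (log2 -0.17 ± 0.24, adjusted p = 0.759), was called in LV. *Cd36* was the member that did not overlap in WT LV, at 41.8 to 54.5 and 33.0 to 41.1 TPM, against 1.99% of genes. In KO LV it was *Angptl4*, against 4.2%. By genotype no member was called in LV, where 0.0202% of genes were. Unadjusted, 1 of 10 members passed, against 4.55% of genes, and DESeq2 called no member and 11 genes.

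Insulin was added in male WT mice, where the question was whether it countered the leptin response. Between PBS with and without insulin, 0% of genes and no member were called (976 genes and 0 of 10 members at an unadjusted p below 0.05, 4 genes and no member by DESeq2, which gave 5 members no adjusted p). *Slc27a1* was at 31.5, 36.1, 31.7, 35.2 and 36.7 TPM with PBS and insulin, and at 36.6, 52.1 and 83.8 TPM, lowest, median and highest, in the 6 mice with leptin and insulin. The lowest of these lay just under the highest with PBS and insulin, and the rise was 1.68-fold (log2 0.75 ± 0.17, adjusted p = 0.0355). It was the member called within insulin, against 0.558% of genes, in 23 of 32 alternatives (adjusted p 0.00268 to 0.0965). No member was without overlap there, against 2.95% of genes. At an unadjusted p below 0.05 there were 5 of 10 members, against 15.5% of genes, and DESeq2 called 1 member and 229 genes. *Cd36* changed by -0.12 ± 0.16 within insulin (adjusted p = 0.774). *Angptl8* was at 2.38, 1.43, 1.41, 2.81 and 1.92 TPM with PBS and insulin and at 0.52, 0.68 and 2.46 TPM with leptin and insulin (log2 -0.93 ± 0.38, adjusted p = 0.237).

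Leptin with insulin against leptin alone called no member and 0.363% of genes, and 0.229% of genes but no member did not overlap. Unadjusted, 2 of 10 members passed, against 16.6% of genes, and DESeq2 called no member and 174 genes. *Angptl8* was higher by 0.86 ± 0.41 (95% interval 0.03 to 1.7, adjusted p = 0.287) and *Slc27a1* differed by -0.28 ± 0.15 (95% interval -0.59 to 0.03, adjusted p = 0.346). The difference for *Cd36* was 0.14 ± 0.15 (adjusted p = 0.683). Against PBS alone, leptin with insulin raised *Slc27a1* 1.72-fold (log2 0.78 ± 0.17, adjusted p = 0.0205), without overlap, the member called against 1.1% of genes (2.76% without overlap). *Angptl8* differed by -1.18 ± 0.38 (adjusted p = 0.106). The difference in the leptin response with and without insulin passed for 0% of genes and no member (1385 genes and 1 of 10 members unadjusted, 21 genes and no member by DESeq2, which gave 6 members no adjusted p). The member with an unadjusted p below 0.05 was *Lpl* (-0.49 ± 0.22), whose leptin response within insulin was -0.43 ± 0.16 (adjusted p = 0.193). For *Angptl8* the difference was 1.11 ± 0.55 (95% interval -0.02 to 2.23, adjusted p = 0.531), and for *Cd36* 0.08 ± 0.23 (adjusted p = 0.922). Mice with insulin had numbers in 2 series that held no other mice, so insulin and series cannot be told apart. The first held all 5 mice with PBS and insulin and leptin and insulin replicates 1 to 3, and the second held replicates 4 to 6. Within the first, *Slc27a1* was at 47.8, 56.4 and 39.9 TPM with leptin and insulin, above all 5 mice with PBS and insulin, and *Angptl8* was at 1.02, 0.52 and 2.46 TPM, within their range in 1 mouse. *Slc27a1* lost its call within insulin without PBS and insulin replicate 1, 2, 3 or 5 or leptin and insulin replicate 5 or 6, and against PBS alone without leptin and insulin replicate 5 or 6 or PBS replicate 4, and *Angptl8* gained one without leptin and insulin replicate 3 (log2 -1.40, adjusted p = 0.0483).

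Across the 40 CV libraries without insulin, genotype called no member and 0.269% of genes, and DESeq2 called no member and 61 genes. Unadjusted, 1 of 10 members passed, against 15.2% of genes. That member was *Angptl4*, at 24.0 to 67.2 TPM in WT and 32.9 to 64.5 TPM in KO mice with PBS (log2 0.41 ± 0.19, adjusted p = 0.294). Sex called *Angptl4*, 1 of 10 members against 13.3% of genes. With PBS it was at 24.0 to 53.9 TPM in females and 29.4 to 67.2 TPM in males, and it was 1.98-fold higher in males over both treatments (log2 0.98 ± 0.19, adjusted p = 3.42e-05), called in 49 of 49 alternatives. Of the 6 muscle markers, 4 were also higher in males, and with their sum as a covariate the difference was 1.22 (adjusted p = 4.63e-05). The osteoblast marker sum with PBS was 2250 to 14351 TPM in females and 740 to 5707 TPM in males. The part of osteoblasts in the sex difference was not tested. Another 4 members had an adjusted p below 0.05 with a smaller change, against 58.6% of genes at any fold: *Cd36* (log2 0.28) and *Gpihbp1* (0.25) were higher in males and *Slc27a1* (-0.30) and *Slc27a4* (-0.18) lower. For *Gpihbp1* the sign turned with limma on log2(TPM + 1) (-0.07). The leptin response differed by sex in 0.00672% of genes and no member, and by DESeq2 in no member (*Angptl8* had no adjusted p). Unadjusted, 1 of 10 members passed, against 7.44% of genes. The member with an unadjusted p below 0.05 was *Lpl*, whose response was 0.48 ± 0.18 higher in males (95% interval 0.12 to 0.83, adjusted p = 0.514). That for *Cd36* was 0.26 ± 0.18 higher in males (95% interval -0.10 to 0.63, adjusted p = 0.793), and that for *Slc27a1* differed by 0.01 ± 0.18 (95% interval -0.35 to 0.38).

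Of 46 other genes of fatty acid uptake, 43 were tested. *Lipg*, endothelial lipase, a relative of *Lpl* that acts mainly on phospholipids, was called higher with leptin in female WT, male WT and male KO CV (log2 1.34, 1.75 and 1.66). In female WT CV it was at 1.06 to 2.36 TPM with PBS and 3.48 to 6.68 TPM with leptin, and in male WT CV at 0.71 to 1.96 and 2.66 to 7.58 TPM. In the fit of 40 CV libraries it rose by 1.62 ± 0.16 (adjusted p = 4.8e-10), and in LV by 0.74 ± 0.13 (adjusted p = 0.00605). In iWAT it was at 1.11 to 3.01 and 1.16 to 2.23 TPM, and its leptin response differed from that in CV (-1.72 ± 0.38, adjusted p = 0.00514).

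Female WT CV, where 5.04% of all genes were called, had 1 of these 43 higher and 3 lower, *Cav1* (log2 -0.84, adjusted p = 0.00109), *Cav2* (-0.74, adjusted p = 0.00232) and *Dbi* (-0.97, adjusted p = 0.0334). *Cav1* and *Cav2* encode caveolins, coat proteins of the membrane pits where CD36 is found, and *Dbi* encodes an acyl-CoA binding protein. Male WT CV, where 1.75% of all genes were called, had 2 higher, *Lipg* and *Apoc3* (log2 4.15, adjusted p = 0.0055), an apolipoprotein that inhibits lipoprotein lipase, and 2 lower, *Dbi* (-0.79) and *Fabp3* (-0.97). *Apoc3* was at 0 to 1.40 TPM with PBS and 5.24 to 42.3 TPM with leptin in male WT CV. Female KO CV had none called. At an unadjusted p below 0.05 there were 13 of 43, against 11.6% of all genes, and DESeq2 called 5 of the 43 and 219 of all genes. The fit of 40 CV libraries, with 5.49% of all genes called, had 4 higher and 4 lower, and the median log2 fold change over the 43 genes was -0.03.

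In iWAT, 3 of the 43 were higher and 7 lower with leptin, against 7.24% and 7.87% of all genes. *Cav1* was at 664 to 854 TPM with PBS and 139 to 294 TPM with leptin (log2 -1.83 ± 0.18, adjusted p = 0.000108), and *Cav2* fell by 1.56 (adjusted p = 0.000223). *Slc27a2*, a transport protein known from liver and kidney, rose from 0.54 to 2.81 TPM to 6.61 to 20.5 TPM (log2 3.54 ± 0.51, adjusted p = 0.000962), whereas in CV it did not exceed 0.52 TPM in any group. *Apoc1* (log2 1.38, adjusted p = 0.000379) rose as well, and *Sel1l*, needed for the maturation of lipoprotein lipase, fell by 0.51 (adjusted p = 0.000722). *Cav1* and *Cav2* fell further in iWAT than in CV (interaction -1.02, adjusted p = 0.00301, and -0.85, adjusted p = 0.00895). Within insulin none of the 43 genes was called. Unadjusted, 11 of the 43 passed, against 15.5% of all genes, and DESeq2 called 2 of the 43 and 229 of all genes. Leptin with insulin exceeded leptin alone in *Ppara*, a nuclear receptor for fatty acids (log2 0.65, adjusted p = 0.035).

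As a description over the 51 CV libraries, which share tissue, treatments and sexes, the genes outside the members with the pattern of log2(TPM + 1) most like each were as follows. For *Slc27a1* they were *Eva1a* and *Epb41l4b* (Pearson r 0.848 for both), and for *Angptl8* they were *Cela1* (0.837) and *Mgll* (0.835), the monoglyceride lipase. For *Cd36* they were *Pde3b* (0.825), a phosphodiesterase of the insulin response, and *Klb* (0.796). *Lpl* was most like *Aoc3* (0.799) and *Adipoq* (0.798), *Fabp4* most like *Cdo1* (0.765) and *Dgat1* (0.763), and *Angptl4* most like *Pdk4* (0.786) and *Ucp3* (0.731), genes known to rise on fasting. *Gpihbp1* paired with *Pim3* and *Cyp1b1* (0.758 and 0.755), *Fabp5* with *Ap1s1* and *Ralb* (0.808 and 0.802), *Slc27a4* with *Chd4* and *Prrc2a* (0.930 and 0.922) and *Vldlr* with *Hacl1* and *Nob1* (0.744 and 0.730). Among the members themselves *Cd36* and *Fabp4* had an r of 0.806 and *Slc27a1* and *Angptl8* one of -0.530.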

How the data were processed

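Libraries were made by the authors from oligo(dT)-selected RNA as 100 bp paired reads, cleaned with SOAPnuke and mapped with HISAT and Bowtie2 to GRCm38.p6 (the submitters' processing notes list GRCm39 as well). The counting tool, tool versions and strand setting are not given in the sources used here. The authors deposited estimated counts per gene, in which 51 values of 6 genes were not whole and were rounded here. The authors also deposited TPM values, used as levels. Of 74693 features, 39063 had a numeric gene ID, and the 14873 of these whose TPM averaged 0.4 or more across all 79 libraries were tested.

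Groups came from the sample labels. Counts were scaled by TMM and tested with edgeR 4.0.16 in R 4.3.3 (glmQLFit and glmQLFTest). Standard errors are the absolute log2 fold change over the root of F, and 95% intervals use the t distribution with the fit's degrees of freedom. P-values were adjusted over all 14873 genes by the Benjamini-Hochberg method. Each sex and genotype was fitted alone, CV was also fitted together (40 libraries), and the insulin groups shared 1 fit of 24 male WT libraries. Tissues of 1 mouse share a mouse: 19 of 30 pairs had deviations from the group mean correlated above 0.1 (median r 0.151), and the fit with the mouse as a block is given where it changed a call. Alternatives were DESeq2 1.42.0, RLE size factors, limma 3.58.1 on log2(TPM + 1) and log2(TPM + 0.1), no filter, a minimum mean of 1 TPM, a replicate block, the series of mouse numbers or the muscle marker level as a covariate, and leaving out each library. Figures were drawn with matplotlib 3.10.9. The edgeR fits were tested on simulated data.

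The members, lists and tests were chosen with earlier results of these data known. All 10 members are named. Other pathway genes named are a selection of those called, and for each member the 2 genes of highest correlation over CV are named. The interaction of tissue and leptin passed for 4 of the 43 pathway genes upwards and 8 downwards, against 15.5% of all genes. Sex called 6 of the 43 higher and 4 lower in males, against 13.3% of all genes. The remaining genes described in the text are cell type markers, *Dock6* and *Pnpla2*. Promoter sequences are from RefSeq (GRCm38.p6).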

Additional observations from a re-analysis of the deposited data

Results flagged for a closer look

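Single libraries lay apart from the rest of their group, by Dixon's 95% critical value, in 13 of 160 groups of member values (8.13%). About 1 in 20 is the rate for independent, normally distributed values. These groups share libraries, so the 2 rates cannot be compared directly. In male WT CV with PBS and insulin, replicate 4 was high for 3 members: *Gpihbp1* at 206.55 TPM (others 136 to 150.3), *Fabp5* at 65.81 TPM (others 46.3 to 51.8) and *Angptl4* at 70.86 TPM (others 34.6 to 42.7). *Angptl4* had 3 more such values. Male WT CV leptin replicate 8 was at 234.28 TPM (others 32.5 to 88.5), leptin and insulin replicate 6 at 114.32 TPM (others 21.0 to 45.7), and female WT LV leptin replicate 2 at 8.41 TPM (others 5.32 to 6.04). *Angptl8* was at 9.30 TPM in female WT CV PBS replicate 2 (others 2.70 to 3.96) and at 2.46 TPM in leptin and insulin replicate 3 (others 0.52 to 1.02).

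*Vldlr* was at 12.85 TPM in female WT iWAT leptin replicate 3 (others 7.91 to 9.06) and 92.0 TPM in male WT CV leptin replicate 3 (others 49.3 to 68.6). *Slc27a4* was at 14.90 TPM in female WT CV leptin replicate 2 (others 18.1 to 19.2) and 12.68 TPM in male WT CV PBS replicate 2 (others 13.3 to 13.5). *Fabp5* was at 41.81 TPM in male KO CV PBS replicate 3 (others 53.7 to 57.5).

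The leptin response differed between iWAT and CV, by the interaction test, for *Fabp5* (iWAT minus CV -2.24 on the log2 scale), *Vldlr* (-1.27), *Gpihbp1* (-0.90) and *Slc27a4* (-0.63).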

How the results depend on the processing

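Among values of members with an adjusted p below 0.05, 1228 kept their direction and side of the thresholds under the alternatives, 36 lost and 2 gained a call, and 6 changed sign. The sign changes came with limma on log2(TPM + 1) and log2(TPM + 0.1): *Gpihbp1* by sex (-0.067 and -0.068), *Fabp5* between CV and LV (0.35 and 0.36) and *Slc27a4* between iWAT and LV (0.58 and 0.60). Some counts of members called moved by over 1.5 times, and the cause was not tested. DESeq2 called 1 in female KO CV and 2 in male KO CV, against 0. With the replicate number as a block, 1 was called in male WT CV, against 2, and 0 for leptin within insulin, against 1. With the muscle marker level as a covariate, 1 was called in male WT CV, 1 in male KO CV, 2 by sex (against 1) and 0 for leptin with insulin against PBS (against 1). Limma called 2 and 3 by sex with the larger and smaller pseudocount, and 0 for leptin within insulin with both. Smaller moves were 4 in female WT CV with DESeq2 and with the replicate block (against 3), 2 there with the muscle covariate, 3 in male WT CV with the series covariate, 10 between CV and LV with DESeq2 and with the mouse as a block (against 8), 10 between iWAT and LV with limma (against 9), and 5 to 6 for the interaction of tissue and leptin with limma on log2(TPM + 1) and the mouse block (against 4). Leaving out each library gave 2 to 5 in female WT CV, 0 to 1 in male KO CV, 0 to 2 within insulin and 0 to 2 for leptin with insulin against PBS.

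Mice with the same replicate number in the PBS and leptin groups were different mice, and 16 of 37 such pairs had deviations correlated above 0.1 (r -0.40 to 0.51), so the replicate block does not mark a pairing. DESeq2 gave no adjusted p for *Angptl8* in male WT CV. Over all genes, DESeq2 called 219 against 4 in female KO CV, 214 against 28 in male KO CV and 464 against 260 in male WT CV. *Angptl8* rested on 1 to 66 counts per CV library, so its values carry more counting error than those of the other members.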
